A study of Mus musculus with 15 samples.

Results

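A set of 10 genes of lipoprotein lipase and fatty acid uptake were followed through dissected kidney tubule segments of wild-type mice and of mice lacking claudin-10a. The genes were found by matching the Ensembl identifiers of the deposited count table to 10 listed symbols (Lpl, Gpihbp1, Angptl4, Apoe, Vldlr, Cd36, Slc27a1, Slc27a2, Fabp1 and Fabp3), which gave 10 genes of the 54752 in the table. The list was proposed with the knockout difference in proximal tubule in view, where Lpl and Cd36 stood out. For all 10 genes that difference is therefore given as a description without a test, as are the segment difference within the knockout and the difference between the segments' knockout effects, which use the same proximal knockout libraries. The knockout difference in distal tubule was tested. The segment difference in wild type was tested for the genes other than Lpl and Cd36; it uses the proximal wild-type libraries that also enter the proximal knockout difference, so it is not fully independent of the choice of genes.

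Total RNA was sequenced from proximal tubules (labelled PCT) and distal convoluted tubules (DCT). The genotypes were wild type (WT) and Cldn10a KO, with 4 proximal WT, 3 proximal KO, 4 distal WT and 4 distal KO libraries; all mice had standard food and water. The labels give neither the age of the mice nor how the knockout allele was made. Each kidney gave a pool of 10 proximal or about 20 distal tubule pieces, so a library is an average over tubules. The labels do not say that each library is a different animal, so the p-values measure only the spread between these libraries.

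Totals per library ran from 28729339 to 51764746 counts, and 57.8% to 71.6% of them fell on mitochondrial ribosomal RNA and 8.02% to 19.7% on nuclear protein-coding genes. Levels below are CPM, counts divided by the library's effective size, scaled for composition over all 15 libraries. The targeted gene Cldn10 had 541 to 1514 counts in the proximal WT libraries and 0 in all 3 proximal KO libraries. In distal tubule it had 3 to 22 counts in WT and 0 to 24 in KO, too few to check the genotype there. Slc34a1, the sodium-phosphate cotransporter of proximal tubule, lay at 924 to 1340 CPM in proximal and at most 1.28 CPM in distal libraries. Slc12a3, the thiazide-sensitive cotransporter of distal convoluted tubule, lay at 603 to 843 CPM in distal and at most 0.311 CPM in proximal libraries. The distal libraries also held 794 to 1300 summed CPM of 9 thick ascending limb markers. Of these, Umod held 113 to 256 CPM in distal WT and 190 to 270 CPM in distal KO. Slc12a1 held 12.2 to 77.3 CPM and 59.8 to 125 CPM there. In addition, 8 collecting duct markers summed to 200 to 264 CPM in distal WT and 128 to 245 CPM in distal KO.

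Lipoprotein lipase hydrolyses the triglyceride of circulating lipoproteins at the capillary wall, where GPIHBP1 anchors it and ANGPTL4 inhibits it. The fatty acids released enter cells with the help of CD36 and fatty acid transport proteins, and cytosolic fatty acid binding proteins carry them onward. Proximal tubule cells rely on fatty acid oxidation for most of their energy. APOE is a lipoprotein ligand, and VLDLR, one of its receptors, takes part in presenting triglyceride-rich particles to the lipase.

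Lpl, the lipase itself (GRCm38, chr8:68880491-68907448), was highest in proximal KO tubules and lowest in proximal WT tubules. The 4 proximal WT libraries held 17.1, 34.6, 13.2 and 18.2 CPM, and the 3 proximal KO libraries held 68.3, 103 and 54.6 CPM. Every proximal KO library lay above every proximal WT library. Group means were 20.8 ± 9.48 CPM (SD, n = 4) in WT and 75.4 ± 25.1 CPM (SD, n = 3) in KO, a log2 difference of 1.89 ± 0.29 (SE). This difference lay between 1.64 and 2.17 when any 1 library was left out. The label numbers of WT library 6 and KO library 7 belong to another series than the rest; in that pair Lpl was 18.2 and 54.6 CPM, and over the other libraries its means were 21.6 and 85.8 CPM.

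In distal tubule the 4 WT libraries held 27.3, 28.2, 38.2 and 43.6 CPM of Lpl, and the 4 KO libraries 49.1, 49.6, 45.9 and 50.6 CPM. The KO libraries were close together and all above the WT libraries, with means of 48.8 ± 2.02 and 34.3 ± 7.94 CPM (SD, n = 4 each). The log2 difference of 0.53 ± 0.15 (SE) did not pass the threshold of 0.05 over all genes (limma, unadjusted p = 0.00168, adjusted p = 0.662). In the authors' deposited table the same gene had a log2 fold change of 0.51 with an adjusted p of 0.215. Lpl was the 1 gene among the 10 whose distal groups did not overlap, against 3.82% of all genes tested, and no gene at all was called in this comparison (0% of 12969 genes by limma, 925 had an unadjusted p under 0.05).

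The segment order of Lpl differed in sign between the genotypes. In WT, proximal tubule held less Lpl than distal tubule, with a log2 difference of -0.82 ± 0.23 (SE, description), although proximal library 2 (34.6 CPM) lay above 2 of the distal libraries. In KO, proximal tubule held more, with a log2 difference of 0.58 ± 0.20 (SE) and no overlap between the groups. The knockout effect in proximal minus that in distal tubule was 1.38 ± 0.33 on the log2 scale (SE, description). Over all 15279 genes limma called 0 for this difference (849 had an unadjusted p under 0.05), while limma without precision weights called 5.

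**Figure D1:**
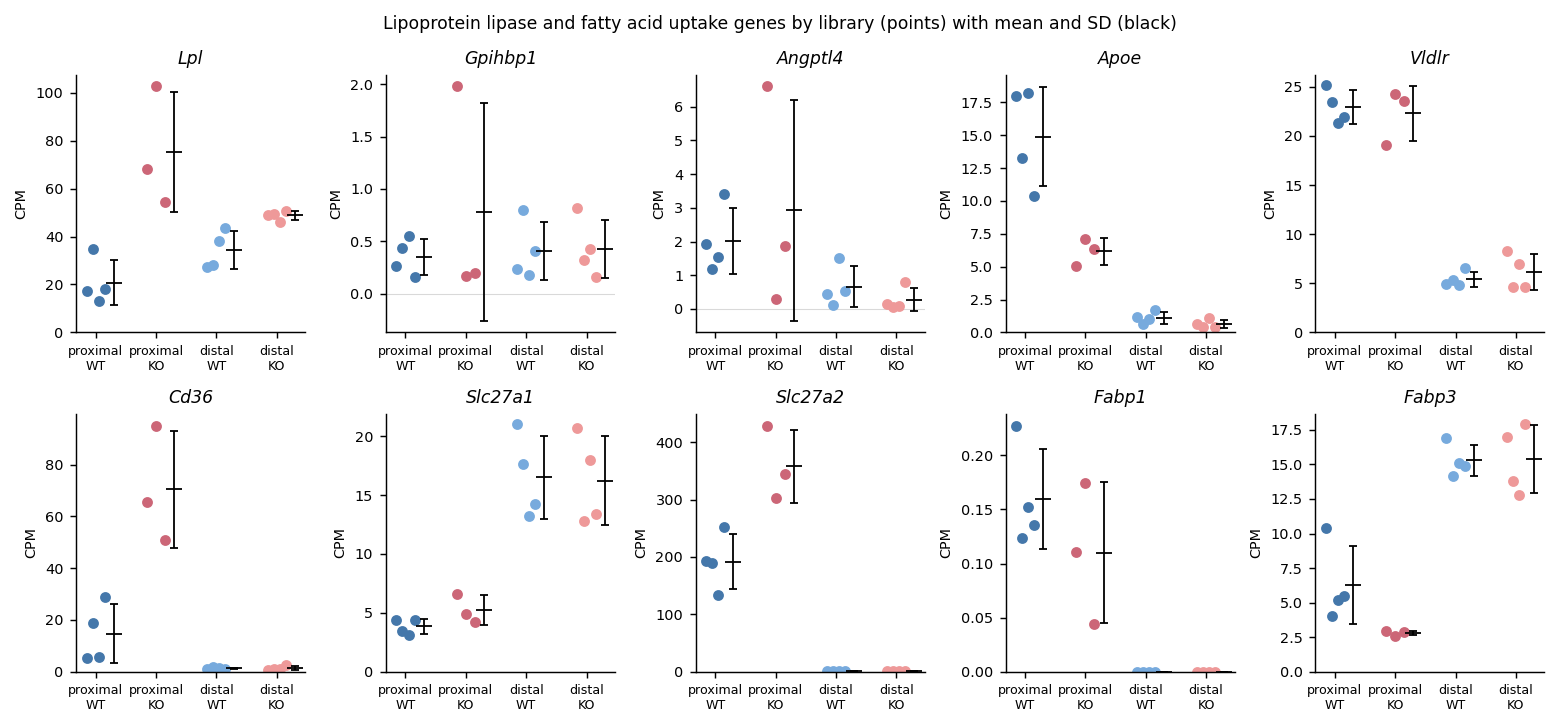
Scaled level (CPM, linear axis) of the 10 genes in each of the 15 libraries, by segment and genotype; points are libraries and black marks are the group mean and SD. The proximal KO points of Lpl, Cd36 and Slc27a2 lie above all proximal WT points, and those of Apoe and Fabp3 below them.

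Gpihbp1, the anchor of the lipase, was under 1 CPM in all libraries but 1. It lay at 0.269, 0.435, 0.55 and 0.159 CPM in proximal WT and at 1.98, 0.174 and 0.198 CPM in proximal KO. The first of these KO libraries (labelled 4) stood apart, and the fitted log2 difference of 0.18 ± 0.78 (SE) became -0.82 without it. In distal tubule Gpihbp1 lay between 0.161 and 0.814 CPM over the 8 libraries, with a knockout difference of -0.03 ± 0.61 on the log2 scale (SE; adjusted p = 0.996 by limma). Its segment difference in WT was -0.17 ± 0.56 (log2 with SE, adjusted p = 0.834 by limma), so no difference was detected at this depth.

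Angptl4, the inhibitor of the lipase, held 1.92, 1.18, 1.55 and 3.41 CPM in proximal WT and 6.61, 0.298 and 1.87 CPM in proximal KO. The KO libraries spread over the whole range of the WT libraries and beyond it. The mean was higher in KO (2.93 ± 3.28 CPM, SD, n = 3, against 2.02 ± 0.978 CPM, SD, n = 4) while the fitted log2 difference was -0.30 ± 0.71 (SE), so the mean and the fit differed in sign. Without KO library 4 the fitted difference was -1.25, and without KO library 5 it was 0.84. Distal levels were lower, at 0.448, 0.114, 1.52 and 0.535 CPM in WT and 0.158, 0.0581, 0.0995 and 0.784 CPM in KO. The distal knockout difference of -1.24 ± 0.86 (log2, SE) did not pass (limma, adjusted p = 0.775). In WT, Angptl4 was higher in proximal than in distal tubule by 2.0 ± 0.57 on the log2 scale (SE; adjusted p = 0.0086 by limma), with 1 distal library inside the proximal range. With all 15 libraries in 1 fit the adjusted p was 0.0514.

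Apoe was lower in proximal KO than in proximal WT tubules, and lower still in distal tubules. It held 18.0, 13.3, 18.2 and 10.4 CPM in proximal WT and 5.07, 7.09 and 6.35 CPM in proximal KO. No KO library reached the lowest WT library, and the log2 difference was -1.26 ± 0.23 (SE), between -1.42 and -1.16 with any 1 library left out. The distal libraries held 1.14, 0.641, 1.01 and 1.73 CPM in WT and 0.604, 0.436, 1.07 and 0.415 CPM in KO. There the groups overlapped and the log2 difference of -0.85 ± 0.43 (SE) did not pass (limma, adjusted p = 0.687). Within WT, Apoe was 13.2-fold higher in proximal than in distal tubule by the group means (log2 difference 3.75 ± 0.35, SE; limma, adjusted p = 1.67e-07).

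Vldlr differed between the segments, and its genotype groups overlapped in both. Proximal levels were 25.2, 23.4, 21.3 and 21.9 CPM in WT and 19.1, 24.3 and 23.6 CPM in KO, a log2 difference of -0.06 ± 0.16 (SE). Distal levels were 4.97, 5.29, 4.80 and 6.55 CPM in WT and 8.32, 4.62, 6.92 and 4.64 CPM in KO, a log2 difference of 0.13 ± 0.21 (SE; adjusted p = 0.92 by limma). In WT the receptor was 4.24-fold higher in proximal tubule by the group means, with a log2 difference of 2.07 ± 0.14 (SE; adjusted p = 7.06e-09 by limma).

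Cd36, the membrane glycoprotein that binds and takes up long-chain fatty acids, had the largest proximal knockout difference of the 9 genes fitted. The proximal WT libraries held 5.29, 18.7, 5.54 and 28.9 CPM and the proximal KO libraries 65.6, 94.9 and 50.7 CPM. The WT libraries fell into a low and a high pair, and all KO libraries lay above both. Means were 14.6 ± 11.4 CPM (SD, n = 4) and 70.4 ± 22.5 CPM (SD, n = 3), with a log2 difference of 2.60 ± 0.47 (SE) that lay between 2.24 and 3.05 with any 1 library left out. In the pair of libraries with the other series of label numbers (WT 6 and KO 7) Cd36 was 28.9 and 50.7 CPM, and over the rest its means were 9.84 and 80.3 CPM. The authors' deposited table gives a log2 fold change of 2.25.

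Distal Cd36 was near 1 CPM in both genotypes, at 1.10, 1.74, 1.29 and 1.20 CPM in WT and 0.84, 1.22, 1.17 and 2.45 CPM in KO. The distal groups overlapped, with a log2 difference of 0.00 ± 0.34 (SE; adjusted p = 0.999 by limma). Within WT, Cd36 was 11-fold higher in proximal tubule by the group means (log2 difference 3.03 ± 0.70, SE, description). Within KO the log2 difference was 5.67 ± 0.36 (SE, description).

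Slc27a2, a very long-chain acyl-CoA synthetase and fatty acid transport protein, was the most abundant of the 10 genes in proximal tubule, also per transcript length. Proximal WT libraries held 193, 189, 134 and 252 CPM and proximal KO libraries 428, 302 and 345 CPM. All KO libraries were above all WT libraries, with a log2 difference of 0.91 ± 0.20 (SE). In distal tubule it lay between 0.348 and 1.16 CPM over the 8 libraries, with a knockout difference of -0.48 ± 0.46 (log2, SE; limma, adjusted p = 0.853). Its proximal level in WT was 243-fold its distal level by the group means (log2 difference 7.90 ± 0.44, SE; limma, adjusted p = 7.34e-10).

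Slc27a1, the related fatty acid transport protein better known from muscle and fat, had the opposite segment pattern. Proximal libraries held 4.40, 3.46, 3.11 and 4.41 CPM in WT and 6.63, 4.87 and 4.19 CPM in KO, with overlapping groups and a log2 difference of 0.41 ± 0.23 (SE). Distal libraries held 21.0, 17.6, 13.2 and 14.2 CPM in WT and 20.7, 12.8, 18.0 and 13.4 CPM in KO, a log2 difference of -0.02 ± 0.18 (SE; adjusted p = 0.988 by limma). In WT it was lower in proximal than in distal tubule by a log2 difference of -2.10 ± 0.19 (SE; adjusted p = 1.22e-07 by limma).

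The 250 bases before a transcription start are shown for 4 genes with opposite segment patterns, Cd36, Apoe and Vldlr (higher in proximal tubule) and Slc27a1 (higher in distal tubule). RefSeq start windows on GRCm38.p6 were matched for 7 of the 10 genes, with 12 windows in all; Lpl, Gpihbp1 and Angptl4 had no entry. Of the 12 windows, 6 shared bases with an annotated exon and are not printed, and for each gene shown the first of the remaining windows is given. Capitals mark matches on either strand to the TATA box spelled TATAAA, the CCAAT box, the GC box spelled GGGCGG, the nuclear receptor motif spelled AGGTCA, the HNF1 motif spelled GTTAAT and the HNF4 motif spelled CAAAGTCCA.
Cd36, chr5:17835897-17836146 (- strand): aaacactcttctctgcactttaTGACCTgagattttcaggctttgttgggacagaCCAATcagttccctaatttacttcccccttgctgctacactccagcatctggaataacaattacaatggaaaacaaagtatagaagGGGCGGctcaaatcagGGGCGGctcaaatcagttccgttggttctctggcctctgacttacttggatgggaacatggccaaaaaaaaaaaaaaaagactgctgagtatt
Apoe, chr7:19699189-19699438 (- strand): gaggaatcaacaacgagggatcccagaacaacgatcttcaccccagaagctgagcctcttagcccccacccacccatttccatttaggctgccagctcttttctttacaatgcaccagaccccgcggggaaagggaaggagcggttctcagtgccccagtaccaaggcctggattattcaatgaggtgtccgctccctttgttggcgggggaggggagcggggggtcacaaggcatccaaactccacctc
Vldlr, chr19:27216234-27216483 (+ strand): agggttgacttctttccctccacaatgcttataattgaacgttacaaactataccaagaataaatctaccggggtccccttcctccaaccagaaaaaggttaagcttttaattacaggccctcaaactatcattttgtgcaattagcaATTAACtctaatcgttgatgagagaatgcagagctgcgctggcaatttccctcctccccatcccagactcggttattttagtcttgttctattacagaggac
Slc27a1, chr8:71568621-71568870 (+ strand): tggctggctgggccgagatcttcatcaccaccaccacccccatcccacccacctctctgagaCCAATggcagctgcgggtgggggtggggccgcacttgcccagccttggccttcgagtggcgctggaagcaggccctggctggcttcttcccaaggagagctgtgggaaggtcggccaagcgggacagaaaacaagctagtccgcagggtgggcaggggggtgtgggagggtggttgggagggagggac
The Cd36 window lies inside the annotated span of the gene, in no annotated exon. It held a nuclear receptor motif at -228 to -223, a CCAAT box at -195 to -191 and GC boxes at -109 to -104 and -93 to -88, counted back from -1 at the base before the start. The Vldlr window held an HNF1 motif, the Slc27a1 window a CCAAT box and the Apoe window no match. A further Apoe window in no annotated exon, not printed, held TATA box matches at -100 to -95 and -96 to -91. A further such Slc27a1 window held a CCAAT box at -128 to -124 and GC boxes at -159 to -154, -48 to -43 and -17 to -12. Among 32536 distinct windows of this length, 33.8% held a CCAAT box, 33.0% a GC box, 14% the nuclear receptor motif, 6.47% an HNF1 motif, 12.3% a TATA box and 0.387% the HNF4 motif. A direct repeat of the nuclear receptor motif with 1 base between the copies, which would overlap the single match, was in 0.0338% of windows and in none of the 4 shown. These matches describe letters only.

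Fabp3, the heart-type fatty acid binding protein, was higher in distal than in proximal tubule, and its proximal KO libraries lay below the proximal WT libraries. Proximal WT libraries held 10.4, 4.06, 5.19 and 5.46 CPM and proximal KO libraries 2.93, 2.61 and 2.84 CPM. The KO libraries were tightly grouped below the lowest WT library, and the log2 difference was -1.09 ± 0.32 (SE), or -0.82 at its smallest with 1 library left out. Distal libraries held 16.9, 14.2, 15.1 and 14.9 CPM in WT and 17.0, 13.8, 12.8 and 17.9 CPM in KO, a log2 difference of 0.01 ± 0.15 (SE; adjusted p = 0.995 by limma). The segment difference in WT, proximal minus distal, was -1.38 ± 0.21 (log2, SE; limma, adjusted p = 3.69e-05). Exons of Fabp3 share 80 bases with Gm10570 and 81 bases with Zcchc17, and exons of Slc27a2 share 419 bases with Gm26697, all on the opposite strand. Reads there cannot be told apart if the counting ignored strand.

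Fabp1, the liver-type binding protein, was barely detected and was not fitted. It had 11, 6, 8 and 6 counts in proximal WT, 4, 7 and 2 counts in proximal KO and 0 counts in all 8 distal libraries. Against a distal limit of 3 counts per library its mean WT proximal level of 0.16 ± 0.0463 CPM (SD, n = 4) was 2.04-fold that limit. Its mean KO proximal level was 1.42-fold that limit. The limit covers counting error on the distal side only. Proximal KO library 7, at 0.0441 CPM, lay below the KO limit of 0.0775 CPM.

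Over the 9 genes that passed the filter on low counts, the proximal knockout groups did not overlap for 5, with Lpl, Cd36 and Slc27a2 higher and Apoe and Fabp3 lower, beside 7.97% of all genes. Over all genes limma called 22 of 13229, or 0.166% (13 higher, 9 lower). The genes were proposed on this contrast, so nothing is read from the count of 5. In WT, of the 7 genes fitted besides Lpl and Cd36, 4 were called higher in proximal tubule (Angptl4, Apoe, Vldlr and Slc27a2) beside 23.6% of 13616 genes, 2 were called lower (Slc27a1 and Fabp3) beside 25.1%, and Gpihbp1 was not called. The proximal minus distal difference within KO was 3.37 ± 0.37 (log2, SE) for Apoe, 1.91 ± 0.23 for Vldlr and 9.32 ± 0.38 for Slc27a2. For Slc27a1 it was -1.63 ± 0.24, for Fabp3 -2.44 ± 0.23 and for Angptl4, with overlapping groups, 3.02 ± 1.18. These were in the direction seen in WT. Gpihbp1 was not, at 0.112 ± 0.806 in KO and -0.165 ± 0.565 in WT, with overlapping groups in both. The proximal knockout effect minus the distal one was 2.62 ± 0.86 for Cd36, 1.39 ± 0.61 for Slc27a2, -1.08 ± 0.34 for Fabp3 and -0.40 ± 0.53 for Apoe (log2, SE, description). The proximal WT libraries enter both the proximal knockout difference and the WT segment difference.

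**Figure D2:**
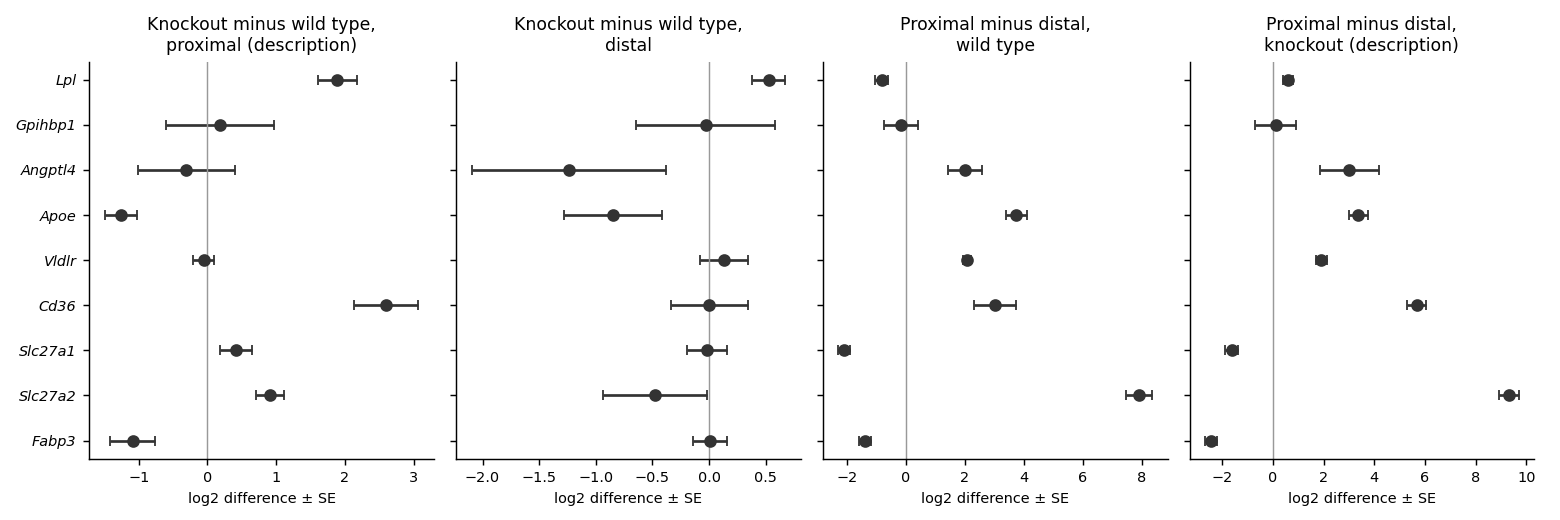
Fitted log2 differences (x axis, limma) with SE for the 9 genes that passed the filter, in 4 comparisons with separate x scales; differences marked as description, and those of Lpl and Cd36 between the WT segments, were not tested. Distal knockout differences are all within 1.3 of 0, while WT segment differences reach 7.90 for Slc27a2 and -2.10 for Slc27a1.

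Compared per length of the longest coding transcript, the order of levels in proximal WT tubule was Slc27a2 (65.9 CPM per kb), Apoe (10.6), Fabp3 (7.63), Lpl (5.05), Cd36 (4.29), Vldlr (2.88), Slc27a1 (1.38), Angptl4 (0.61), Fabp1 (0.289) and Gpihbp1 (0.214). The library ranges of Apoe, Fabp3, Lpl, Cd36 and Vldlr overlapped from one neighbour to the next, and so did those of Angptl4, Fabp1 and Gpihbp1. In proximal KO, Cd36 (20.7 CPM per kb) and Lpl (18.3) followed Slc27a2 (123.0), and the ranges of Cd36 and Lpl overlapped. Distal tubule had another order, with Fabp3 first (18.5 CPM per kb in WT), then Lpl (8.35) and Slc27a1 (5.9), the latter pair with overlapping ranges. Per length of all annotated exons, Fabp3 came before Apoe, and Cd36 and Vldlr before Lpl, in proximal WT, and the first 3 distal genes were unchanged. In distal KO the same 3 genes led at 18.7, 11.9 and 5.8 CPM per kb without overlap.

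Markers of other cell types differed beside these genes. Of 12 markers of the straight proximal tubule, 10 were tested, all 10 were above 0 in the proximal knockout difference and 2 were called higher. Their summed level ran from 303 to 579 CPM in proximal WT and from 937 to 1010 CPM in proximal KO. Slc7a13, a transporter of the last proximal segment, held 7.07, 20.6, 2.16 and 47.3 CPM in WT libraries 1, 2, 3 and 6 and 86.2, 79.7 and 34.4 CPM in KO libraries 4, 5 and 7. In WT the same libraries, 2 and 6, were the higher pair for Slc7a13, for the summed straight markers (514 and 579 CPM), for Cd36 and for Lpl (34.6 and 18.2 CPM), and they were the lower pair for Apoe (13.3 and 10.4 CPM). For Lpl, WT library 1 was close to library 6, at 17.1 CPM. Slc27a2 held 193, 189, 134 and 252 CPM in WT libraries 1, 2, 3 and 6. It was highest in library 6 and lowest in library 3, with libraries 1 and 2 close together. Fabp3 did not show this pairing, at 10.4, 4.06, 5.19 and 5.46 CPM in WT libraries 1, 2, 3 and 6. In KO libraries 4, 5 and 7 the straight markers summed to 959, 937 and 1010 CPM. There Cd36 was 65.6, 94.9 and 50.7 CPM and Lpl 68.3, 103 and 54.6 CPM. Both were highest in library 5, where the marker sum was lowest, but the 3 sums lay close together. Slc7a13 was lowest in library 7 (34.4 CPM), as were Cd36 and Lpl. The 12 early proximal markers summed to 4800 to 5830 CPM in WT and 4810 to 5120 CPM in KO; 2 of the 12 were above 0 in the knockout difference, with a median of -0.36 on the log2 scale, and none was called. Slc5a2, the glucose transporter of the early proximal tubule, ran from 39.9 to 81.2 CPM in WT and from 26.7 to 43.5 CPM in KO. The part of the mixture of proximal segments in the levels of Lpl, Cd36, Slc27a2, Apoe and Fabp3 was not tested. In pooled tubules fewer cells of a type and less RNA per cell cannot be told apart.

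Endothelial cells carry Cd36, and GPIHBP1 is made by them. The 13 endothelial markers summed to 16.0 to 31.8 CPM in proximal WT and 27.0 to 47.9 CPM in proximal KO, all 13 above 0 and none called. In distal tubule they summed to 76.4 to 107 CPM in WT and 68.8 to 77 CPM in KO, with 0 of 13 above 0 and none called. Of 10 adipocyte markers, the sum ran from 1.0 to 1.68 CPM in proximal WT, 2.06 to 3.15 in proximal KO, 2.21 to 2.61 in distal WT and 1.82 to 2.15 in distal KO. Both adipocyte markers tested, Lipe and Fabp4, were above 0 in the proximal knockout difference and neither was called. Of the 10 markers, 3 had a count in proximal WT and 4 in proximal KO. Plin1 had counts in proximal KO and none in proximal WT. Adipoq, Lep, Cidec, Retn and Adrb3 had 0 counts in all 15 libraries. The 12 macrophage markers summed to at most 3.18 CPM in any library, with 0.331 to 1.35 in proximal WT and 1.32 to 2.26 in proximal KO. The part of these cells in the levels of Lpl, Cd36 and the other genes was not tested.

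**Figure D3:**
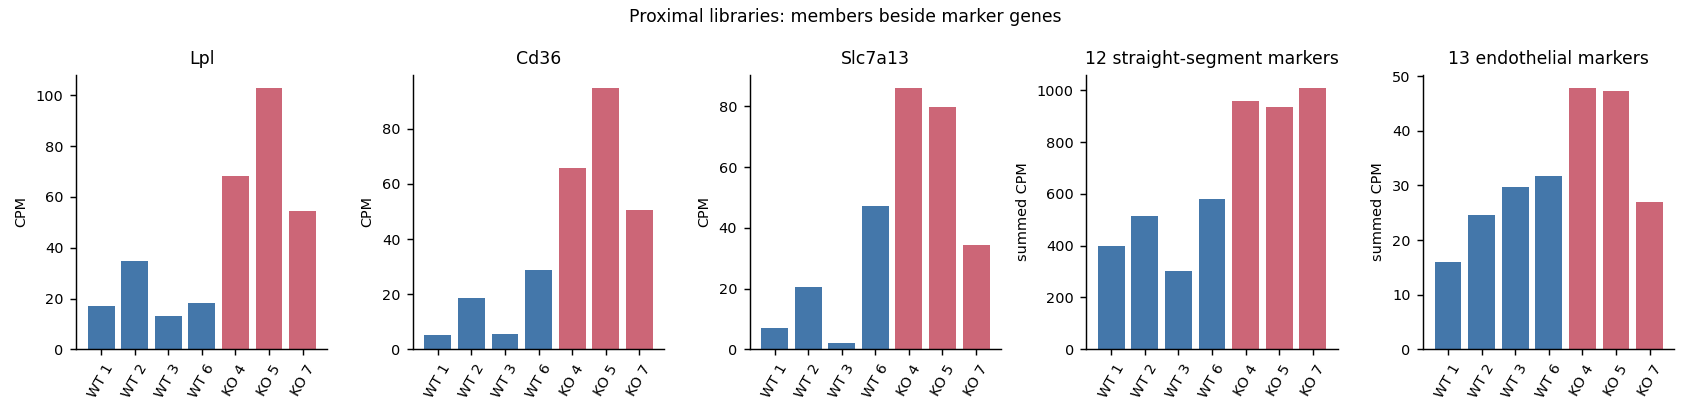
Levels in the 7 proximal libraries (bars; CPM, linear axes from 0) of Lpl, Cd36 and Slc7a13 and of the summed straight-segment and endothelial markers, WT in blue and KO in red. Cd36 reaches 28.9 CPM in WT library 6, where the straight-segment markers sum to 579 CPM. In KO libraries 4, 5 and 7 Cd36 is 65.6, 94.9 and 50.7 CPM, and the markers sum to 959, 937 and 1010 CPM. Slc7a13 is 86.2, 79.7 and 34.4 CPM in these libraries.

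The 5 lists of related genes, chosen by known function, showed calls between the WT segments and none by limma between genotypes in either segment. In the distal knockout comparison 1 gene of each list, and 2 of the fatty acid transport list, had an unadjusted p under 0.05 (limma), beside 925 of all 12969 genes. The list counts between the WT segments stand beside 23.6% of all 13616 genes called higher in proximal tubule and 25.1% called lower. Among 17 genes of lipase control and other plasma lipases, 8 were tested in the WT segment comparison, with 4 higher and 3 lower in proximal tubule. Furin, a convertase that cleaves the lipase, was higher (12.9 against 5.19 CPM, log2 difference 1.29). Hspg2, the heparan sulphate proteoglycan perlecan, was lower (1.75 against 11.1 CPM, log2 difference -2.72). Apoc3, an inhibitor of the lipase, had 0.41 CPM in proximal WT and 0 in distal WT. In the proximal knockout difference Hspg2 had the largest value of the list, at 1.39 ± 0.36 on the log2 scale (SE), with 4.97 CPM in KO and 1.75 in WT. The maturation factor Lmf1 was at 3.64 CPM in distal KO and 5.07 in distal WT (log2 difference -0.54 ± 0.25, SE; limma, adjusted p = 0.687).

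Of 16 genes for lipoprotein assembly and receptors, 14 were tested between the WT segments, with 7 higher and 3 lower in proximal tubule. The endocytic receptors Lrp2 (1690 against 10.0 CPM) and Cubn (416 against 0.676 CPM) and the chaperone Lrpap1 (41.5 against 6.05 CPM) were higher there, and the sorting receptor Sorl1 was lower (19.5 against 52.9 CPM). Lrp2 and Cubn were also among the early proximal markers. Abca1, the cholesterol exporter, had the smallest p of this list in distal tubule, at 11.4 CPM in KO and 8.0 in WT, and did not pass (limma, adjusted p = 0.67).

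Of 20 genes for fatty acid transport, binding and activation, 12 were tested between the WT segments, with 3 higher and 8 lower in proximal tubule. The acyl-CoA synthetases Acsl5 (2.0 against 25.4 CPM) and Acsl4 (11.7 against 38.7 CPM) and the caveolar protein Cav1 (0.467 against 13.1 CPM) were lower, and Dbi, the acyl-CoA binding protein, was higher (107 against 26.4 CPM). Slc27a1 and Fabp3 were lower in proximal tubule like most tested genes of this list, and Slc27a2 was higher. In the proximal knockout difference 4 of 13 tested genes were above 0, with a median of -0.03 against -0.01 over all genes. The largest fitted values of this list, for Mfsd2a and Fabp5, belong to genes at or below 1.02 CPM in both groups; they were singled out after their values were seen.

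Of 20 genes of triglyceride storage and breakdown, 13 were tested between the WT segments, with 6 higher and 2 lower in proximal tubule. Dgat2, which makes triglyceride (21.9 against 1.73 CPM), and the droplet protein Plin2 (5.66 against 1.47 CPM) were higher. The lipases Mgll (0.636 against 9.43 CPM) and Pnpla2 (7.65 against 17.3 CPM) were lower. Between genotypes no gene of this list was called. In proximal tubule Lpin1, a phosphatidate phosphatase, was at 15.0 CPM in KO and 9.26 in WT, and Dgat1 at 2.32 and 3.6 CPM.

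Of 28 PPAR factors and known PPAR targets, 23 were tested between the WT segments, with 12 higher and 4 lower in proximal tubule. The peroxisomal enzyme Ehhadh (42.7 against 5.74 CPM) and the receptor partner Rxra (18.1 against 4.28 CPM) were higher, and the mitochondrial carrier Ucp2 was lower (0.571 against 68.5 CPM). In the proximal knockout difference 18 of 24 tested genes were above 0, with a median of 0.33 against -0.01 over all genes, and none was called. Ehhadh was at 78.3 CPM in KO and 42.7 in WT (log2 difference 0.85 ± 0.21, SE), and Acadm, a mitochondrial beta-oxidation enzyme, at 55.6 and 35.7 CPM (0.61 ± 0.17). In distal tubule 11 of 20 were above 0 with a median of 0.07, and Ppargc1a, a coactivator of mitochondrial genes, was at 89.2 CPM in KO and 69.0 in WT (limma, adjusted p = 0.67).

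**Figure D4:**
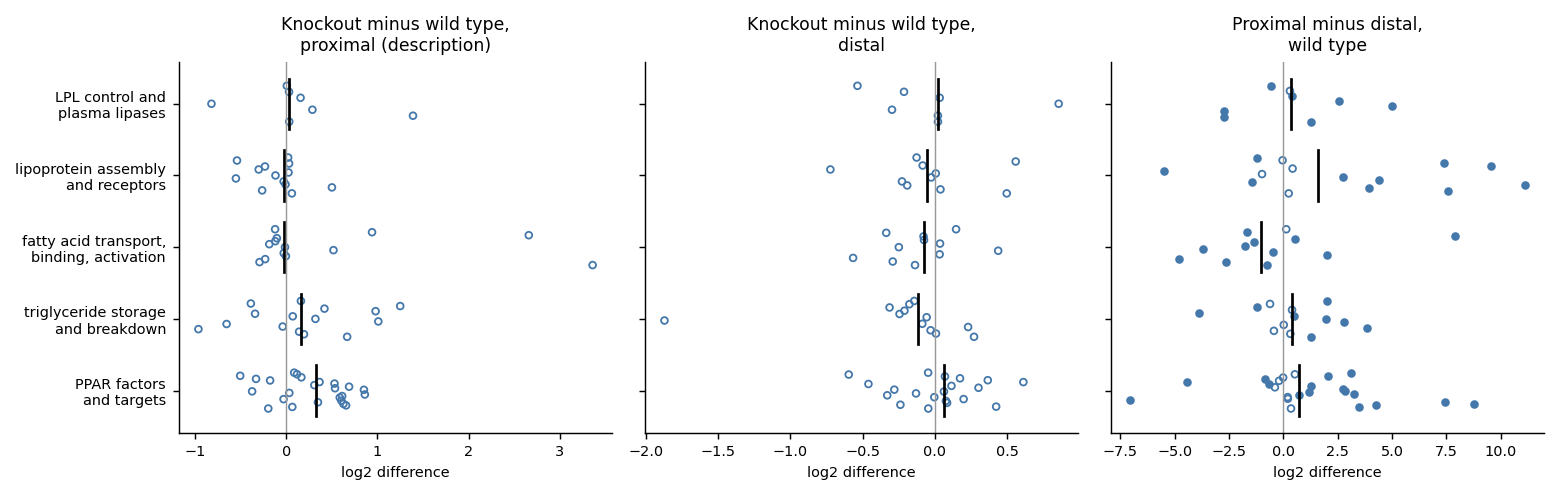
Fitted log2 differences (x axis) of the tested genes of 5 lists (y axis) in 3 comparisons with separate x scales; filled points were called by limma, open points were not called or not tested as a description, and black bars are list medians. Filled points appear in the WT segment comparison only.

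By Pearson correlation of log2 (CPM + 0.5) over the 15 libraries, the 3 of 8188 genes most like Cd36 were Slco1a1 (r = 0.988, rho = 0.878), Acsm3 (r = 0.985, rho = 0.789) and Akr1c14 (r = 0.984, rho = 0.811). Slco1a1, an organic anion transporter, averaged 5.88 CPM in proximal WT, 43.2 in proximal KO and under 0.1 in both distal groups. The genes most like Lpl were Zfp148 (r = 0.817, rho = 0.746), Acat1 (r = 0.813, rho = 0.832) and Zadh2 (r = 0.813, rho = 0.664). Acat1, the mitochondrial acetoacetyl-CoA thiolase, averaged 48.8 CPM in proximal WT, 81.0 in proximal KO, 58.5 in distal WT and 66.3 in distal KO. The 15 points share their 4 groups and library composition, so these values rank likeness only.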

How the data were processed

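RNA of proximal and distal convoluted tubules was measured in 15 libraries, grouped by the genotype and tissue labels. Per the labels' protocols, RNA came from a micro column kit and libraries from Nextera XT. Per the submitters' processing notes, CASAVA 1.8, STAR 2.5 and DESeq2 1.24.0 were used on GRCm38; the program that counted reads, with its gene models and strand rule, is not given in the sources used here. The authors' deposited table holds whole-number counts per gene, which a format check recorded as another unit because of its all-digit column names, so a count model was not used. The authors also deposited log2 fold changes with p-values; their sign was read from Cldn10 (-12.2 in proximal tubule).

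Counts were scaled by the TMM method (trims of 30% on ratios and 5% on intensities), and genes with a count of about 10 in as many libraries as the smaller group and a total of 15 were kept, with Cldn10 exempt. limma 3.58.1 in R 4.3.3 was fitted with voom weights (prior count 0.5) to the libraries of each comparison, with Benjamini-Hochberg adjustment over all genes and a threshold of 0.05. The scripts were tested on simulated data. Symbols and gene coordinates are from GENCODE M21 (54723 of 54752 genes matched).

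The members, lists and tests were chosen with earlier results of these data known. All 10 members are described. Of each list, genes named are among up to 4 with the smallest p in the distal and WT segment comparisons and, for the proximal knockout difference, up to 4 with the largest log2 difference at a mean of at least 2 CPM. The 3 most alike genes have a mean of at least 2 CPM in a group. Alternatives were other scaling, filters, weights, a fit of all libraries, a replicate block and leaving out each library. Depth limits precision below about 1 CPM. Single values of some list genes are not reported here.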

Additional observations from a re-analysis of the deposited data

Results flagged for a closer look

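Angptl4 in distal KO tubule had 1 library apart from the other 3. Its highest library (labelled 8) held 0.784 CPM and the nearest one 0.158 CPM, a gap of 0.863 of the whole range, above the critical value for 4 samples. Among the 10 genes, 30 groups of 4 libraries were looked at in this way and 1 stood out. The distal WT and distal KO groups of Fabp1, with 0 counts throughout, have no range and could not stand out. Chance gives about 1 in 20.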

How the results depend on the processing

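The count of genes called in the proximal knockout comparison was 22 and rose to 80 without the filter, 36 with a stricter filter, 40 with sample quality weights and 123 in 1 fit of all 15 libraries; with 1 library left out it lay between 2 and 18, and was 2, 7 and 9 without WT libraries 1, 2 and 3 and 4, 6 and 10 without KO libraries 4, 5 and 7. The distal knockout count was 0 and became 4 without the filter. The interaction count was 0 and became 1 without the filter and 5 with limma-trend, and lay between 0 and 1 with 1 library left out. The cause of these changes was not tested.

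Lpl stayed positive in the distal knockout comparison under every alternative run, from 0.43 to 0.65 on the log2 scale with adjusted p from 0.292 to 0.905. Distal knockout differences near 0 changed sign. Gpihbp1 was 0.215 with quality weights and 0.0724 with limma-trend, Cd36 was -0.13 and -0.0015, and Slc27a1 was 0.0161 with quality weights. With 1 library left out the ranges were -0.41 to 0.38 for Gpihbp1, -0.0317 to 0.26 for Vldlr, -0.33 to 0.21 for Cd36, -0.15 to 0.0908 for Slc27a1 and -0.0745 to 0.0934 for Fabp3. In the WT segment comparison Gpihbp1 ran from -0.49 to 0.24 with 1 library left out, and Lpl from -1.09 to -0.60.

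The labels do not say whether same-numbered proximal and distal libraries come from the same animal. Their deviations from the group means correlated at -0.00156, -0.113 and 0.116 in WT and at the same -0.387 in both KO pairs. Deviations from means of so few libraries cannot show whether an animal was shared, so nothing is concluded from these correlations. With a replicate block the WT segment difference was -0.59 for Lpl, 1.26 for Angptl4 (limma, adjusted p = 0.0967, against 0.0086 without the block) and 0.0844 for Gpihbp1, and the count of genes called between the KO segments was 3542 instead of 5618.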
